A study of Mus musculus with 15 samples.

Results

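The surface and sorting markers of haematopoietic stem cells (HSC) were examined as 10 protein or gene names: Slamf1, Cd48, Cd34, Ly6a, Procr, Esam, Alcam, Jam2, Neo1 and Cd150. CD150 is the protein made from Slamf1, so the names came to 9 genes, each of which had its own line among the 16154 genes of the deposited count table. The rule names genes known from HSC sorting and uses no measured value, but the names were chosen with earlier results of these data known. RNA was sequenced from 15 libraries of HSC, 1 per mouse and 5 per group, from C57BL/6 animals given as female: young mice aged 6 to 12 weeks without nicotinamide riboside (NR), aged mice of 20 to 24 months without NR, and aged mice of 20 to 24 months that drank NR at 3 mg/ml for 2 months. NR is a vitamin B3 form that cells convert to NAD. In every group, bone marrow cells with the lineage antigens B220, Mac-1, Gr-1 or Ter119 were first removed with beads. The remaining lineage-negative cells were sorted as Sca-1+, cKit+, CD150+ and CD48-, and 20000 to 25000 cells were taken per mouse. Of the 9 genes Ly6a, Slamf1 and Cd48 encode proteins that set the gate. Their transcripts were read only within cells that had passed it.

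HSC are rare cells that renew themselves and give rise to all blood lineages, and they have no single defining protein, so they are isolated by combinations of surface molecules. CD150 is kept and CD48 is excluded in the SLAM scheme, Sca-1 marks primitive progenitors, and CD34 is low on long-term HSC of adult mice and higher on cells that have begun to progress towards multipotent progenitors. Other members, such as EPCR (from Procr), ESAM, ALCAM, JAM2 and neogenin, are adhesion molecules or receptors that have been used to enrich for HSC with long-term activity, and CD150 in particular is known to be higher on HSC of old mice.

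Total counts ran from 2122221 to 3631395 in the young libraries, from 764119 to 13318989 in the aged libraries and from 2486399 to 3595384 in the libraries of NR-treated aged mice, so that 3 counts corresponded to between 0.225 and 3.93 CPM of the totals (CPM are counts scaled to the size of the library). Levels below are CPM after TMM scaling of the library sizes, and levels of different genes are not compared with each other. Some libraries stood apart. Young replicates 1 and 5 held 99.7 and 105.5 CPM summed over 4 Y-linked genes, against at most 3.0 CPM in the other 13 libraries, although all mice were given as female. Young replicate 3 held 5210 CPM summed over 8 neutrophil genes and young replicate 4 held 617.1 CPM, against 23.7 to 66.7 CPM in the other young libraries. The summed level of 12 HSC genes was 2622 to 3060 CPM in young, 3121 to 3603 CPM in aged and 2738 to 3335 CPM in NR-treated aged libraries, so the labelled cell type had its transcripts in every library. In RNA from many cells, fewer cells that express a gene and less RNA of it per cell cannot be told apart.

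The 9 genes lie on 5 chromosomes (GRCm38, GENCODE M21 gene bounds). Cd48 at chr1:171682009-171705258 and Slamf1 at chr1:171767127-171801184, both on the plus strand, are neighbours in the SLAM gene cluster, 61.9 kb apart. Cd34 lies farther along the same chromosome at chr1:194938819-194961279 on the plus strand. Alcam at chr16:52248996-52454074 (minus) and Jam2 at chr16:84774123-84825928 (plus) share chromosome 16. Esam at chr9:37528078-37538319 (plus) and Neo1 at chr9:58874687-59036441 (minus) share chromosome 9, while Ly6a is at chr15:74994877-74998031 (minus) and Procr at chr2:155751117-155755471 (plus).

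The bases just upstream of the gene start are shown for Slamf1 and Cd48, the neighbouring pair whose proteins define the CD150+ CD48- gate, for Cd34, which fell with age, and for Neo1, which rose and has a promoter of very different composition. The sequences are from RefSeq on GRCm38.p6 and read 5′ to 3′ on the strand of the gene. They cover chr1:171766882-171767126 for Slamf1, chr1:171681742-171681991 for Cd48, chr1:194938571-194938818 for Cd34 and chr9:59036442-59036691 for Neo1. Capitals mark a match to 1 of the motifs searched.
Slamf1: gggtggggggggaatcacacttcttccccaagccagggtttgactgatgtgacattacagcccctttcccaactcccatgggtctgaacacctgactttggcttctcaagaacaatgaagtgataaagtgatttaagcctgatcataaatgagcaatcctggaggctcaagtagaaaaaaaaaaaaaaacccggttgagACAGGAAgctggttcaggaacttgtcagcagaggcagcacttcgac
Cd48: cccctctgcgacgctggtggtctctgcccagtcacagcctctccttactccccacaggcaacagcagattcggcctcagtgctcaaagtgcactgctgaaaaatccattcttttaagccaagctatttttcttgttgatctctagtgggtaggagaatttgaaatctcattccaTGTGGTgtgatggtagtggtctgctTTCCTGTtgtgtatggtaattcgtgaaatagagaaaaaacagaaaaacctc
Cd34: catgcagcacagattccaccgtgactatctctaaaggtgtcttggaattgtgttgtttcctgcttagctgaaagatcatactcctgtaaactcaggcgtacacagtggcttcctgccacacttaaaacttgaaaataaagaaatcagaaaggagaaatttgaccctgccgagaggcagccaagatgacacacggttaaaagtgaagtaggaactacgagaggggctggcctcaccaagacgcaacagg
Neo1: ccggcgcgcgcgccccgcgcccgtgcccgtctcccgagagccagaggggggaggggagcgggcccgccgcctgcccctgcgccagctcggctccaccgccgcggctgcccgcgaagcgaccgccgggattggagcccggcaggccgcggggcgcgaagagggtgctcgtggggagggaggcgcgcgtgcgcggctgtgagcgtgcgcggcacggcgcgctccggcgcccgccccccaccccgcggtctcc
Entries were found for 6 of the 9 genes, these 4 and Procr and Alcam, and not for Ly6a, Esam and Jam2. Over the 250 bases before the start, the GC share was 47.2% for Slamf1, 46.0% for Cd48 and 46.4% for Cd34, below the median of 52.4% over 32851 promoters. It was 61.6% for Procr, 69.2% for Alcam and 83.2% for Neo1, whose window held 45 CpG against a median of 6. For Procr and Alcam the window before the RefSeq start reaches inside the GENCODE gene bounds, so their bases are not shown. Both windows are still counted in the motif numbers that follow. Both strands were searched for 3 kinds of motif. The GATA motif was searched only as AGATAA, which was in 0 of the 6 promoters against 9.99% of all promoters. Other forms of it were not searched: the Slamf1 bases hold TGATAA, and the Cd34 bases hold CTATCT, which reads AGATAG on the minus strand. An ETS motif, searched as CCGGAA and, with another flank, as ACAGGAA, was in 2 of 6 (Slamf1 and Cd48, in Cd48 on the minus strand) against 18.4%. Further flanks were not searched: the Slamf1 bases also hold TCAGGAA, and the Cd34 bases hold TTCCTGC, which reads GCAGGAA on the minus strand. A RUNX motif, searched as TGTGGT and also, in a variant, as TGCGGT, was in 1 of 6 (Cd48) against 18.6%. A match is a description of letters and not of a bound site.

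Age was the first comparison, and it asked how the stem cell markers differ between HSC of old and young mice. Of the 9 genes, 7 changed, 6 upwards (Jam2, Neo1, Alcam, Procr, Ly6a and Slamf1) and 1 downwards (Cd34), whereas 19.3% of all genes tested were called (9.68% higher and 9.63% lower; edgeR quasi-likelihood test, adjusted p under 0.05 after Benjamini-Hochberg adjustment over all 16154 genes). For the same 7 genes every aged library lay on one side of every young library, against 12.4% of all genes. The median log2 difference was 1.21 over the members and -0.03 over all genes. When library totals replaced TMM, the share of calls that were higher in aged HSC went from 50.1% to 29.1% over all genes and the median of all genes to -0.16, while the members again gave 6 higher and 1 lower. Relative to that shifted median the members' log2 differences ran from -1.21 for Cd34 to 2.72 for Jam2.

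**Figure D1:**
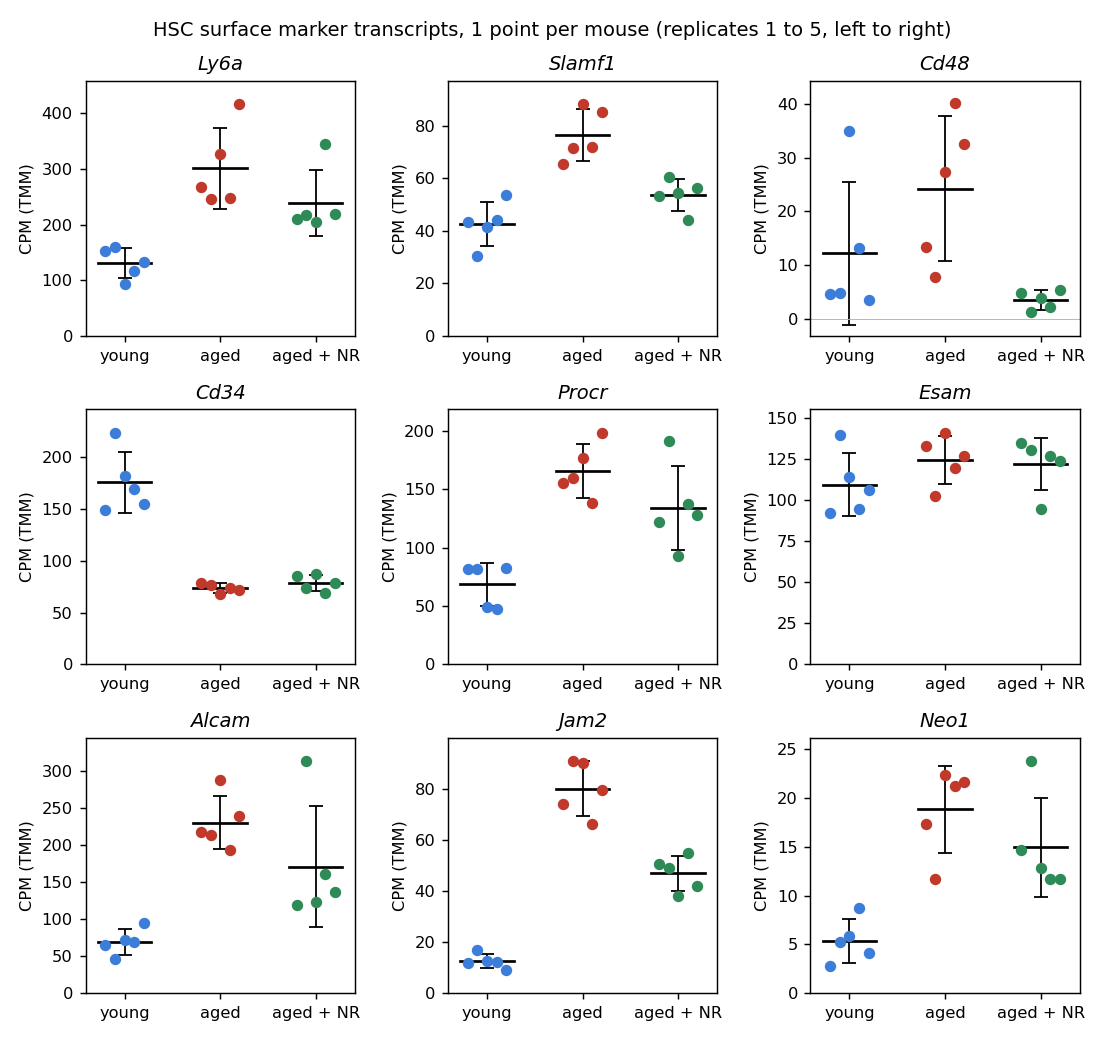
Level of each of the 9 genes in CPM (TMM-scaled; linear axes that start at 0 or just below it where a bar reaches there) in every library, 1 point per mouse, with the group mean and SD (n = 5). Jam2, Neo1, Alcam, Procr, Ly6a and Slamf1 are higher in all aged than in all young libraries, Cd34 is lower in all of them, and Esam overlaps in all groups.

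Jam2, a junctional adhesion molecule that takes part in contacts between cells, was the member with the largest difference. Its level was 11.9, 16.9, 12.6, 12.0 and 9.17 CPM in the young libraries 1 to 5 and 74.0, 90.8, 90.2, 66.0 and 79.3 CPM in the aged ones. The lowest aged library was thus far above the highest young one, and the level rose 6.41-fold (log2 2.68, SE 0.16, 95% interval 2.34 to 3.02, adjusted p = 7e-10 by edgeR). Neo1, which encodes neogenin, a receptor for netrins and repulsive guidance molecules, was a low transcript at 2.81 to 8.71 CPM in young HSC and 11.7 to 22.4 CPM in aged HSC. The groups did not overlap, and it rose 3.7-fold (log2 1.89, SE 0.28, adjusted p = 9.8e-05). Alcam, an immunoglobulin-type adhesion molecule also called CD166, was at 64.2, 46.2, 71.4, 68.2 and 94.7 CPM in the young and 216.6, 212.8, 286.8, 193.2 and 238.6 CPM in the aged libraries. Every aged value was more than the highest young value, a 3.33-fold rise (log2 1.73, SE 0.23, adjusted p = 3.8e-05).

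Procr encodes the endothelial protein C receptor, which holds protein C at the cell surface. It was at 47.5 to 82.3 CPM in young and 138.1 to 198.4 CPM in aged libraries, and rose 2.41-fold (log2 1.27, SE 0.19, adjusted p = 0.0001). Ly6a, which encodes the GPI-anchored protein Sca-1 and is induced by interferons, was at 153.0, 159.9, 92.5, 116.1 and 132.2 CPM in the young libraries and at 268.2, 245.2, 327.6, 248.5 and 416.1 CPM in the aged ones. Aged replicate 5 was the highest of the 15 libraries, and all aged libraries were above all young ones, a 2.31-fold rise (log2 1.21, SE 0.18, adjusted p = 0.00011). Ly6a has close relatives in its gene family, and how reads shared with them were counted cannot be seen in the table.

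The gate markers CD150 and CD48 differed in how firmly they could be read. Slamf1, a self-binding receptor of the SLAM family, was at 43.5, 30.5, 41.3, 44.3 and 53.7 CPM in young and 65.5, 71.4, 88.2, 72.0 and 85.4 CPM in aged HSC. The groups did not overlap although both had been sorted as CD150+, and Slamf1 rose 1.79-fold (log2 0.84, SE 0.14, 95% interval 0.55 to 1.13, adjusted p = 0.00037). Cd48, a GPI-anchored ligand of the SLAM family receptor CD244, was at 4.56, 4.82, 35.0, 13.1 and 3.51 CPM in the young and 13.3, 7.78, 27.3, 40.2 and 32.5 CPM in the aged libraries. Young replicate 3 was higher than all but 1 of the aged libraries, so the groups overlapped, and the difference did not pass the test (log2 1.12, 95% interval 0.07 to 2.17, adjusted p = 0.125). Without young replicate 3 the log2 difference was 1.99 and passed (adjusted p = 0.00393), as it did with limma-voom on all libraries (1.69, adjusted p = 0.0147).

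Cd34, a sialomucin of progenitors and blood vessels, was the only member that fell with age. It was at 149.1, 223.4, 181.9, 168.7 and 154.3 CPM in young HSC and at 78.9, 76.5, 67.5, 74.0 and 71.3 CPM in aged HSC. The aged libraries lay close together, well under the lowest young one, and the level was 2.39-fold lower (log2 -1.26, SE 0.12, 95% interval -1.5 to -1.01, adjusted p = 3.1e-07). Of 6 multipotent progenitor genes 3 fell as well, and their summed level was 129.2 to 181.9 CPM in young against 86.4 to 114.0 CPM in aged libraries. In the NR-treated libraries that sum was 115.3 to 147.8 CPM, above every aged library, and the log2 difference of Cd34 from aged HSC was 0.10. Most of that sum was Cd27, which averaged 108.4 CPM in young, 77.5 CPM in aged and 114.0 CPM in NR-treated libraries. Of the 6 genes only Cd27 was called in NR-treated against aged HSC (log2 0.56, adjusted p = 0.0119 by edgeR). The part of multipotent progenitors in the Cd34 difference was not tested. An antisense gene, Gm16897, overlaps Cd34 exons by 148 bases and had at most 15 counts in any library, and whether the counting used strand is not given in the sources used here. Esam, an adhesion molecule of endothelium and platelets, was at 92.3 to 139.9 CPM in young and 102.5 to 141.2 CPM in aged libraries. These ranges overlapped almost entirely, with a log2 difference of 0.20 (95% interval -0.07 to 0.47, adjusted p = 0.287), so that a change of more than 0.47 lay outside the interval.

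Transcripts of other blood cells also differed with age between these libraries. Of 9 erythroid genes 5 were higher in aged HSC, with summed levels of 2309 to 4650 CPM in young and 5540 to 8974 CPM in aged libraries, and of 7 measured B and plasma cell genes 3 were higher. Of 8 neutrophil and 6 macrophage genes none was called by edgeR. The neutrophil sums were 23.7 to 5210 CPM in young and 1032 to 1662 CPM in aged libraries. The macrophage sums were 376.5 to 2482 CPM in young and 680.7 to 1603 CPM in aged libraries, so the young ranges spanned the aged ones. The part of these cells in the members' differences was not tested. Without young replicate 3 the log2 differences of the 7 called members included 1.11 for Ly6a, 1.18 for Procr, 0.83 for Slamf1, 1.75 for Alcam and 1.93 for Neo1, and without young replicates 1, 3 and 5 together all 7 again passed. Of 6 measured endothelial genes 2 rose, Kdr from 6.72 to 19.3 CPM and Cldn5 from 0.626 to 12.9 CPM. The other 4 were not called by edgeR: Pecam1 (log2 -0.44, adjusted p = 0.063), Emcn (-0.42), Flt1 (-1.88) and Plvap (1.27). The summed level of the endothelial list was 71.7 to 77.8 CPM in aged libraries, above 4 of the 5 young ones (59.1 to 65.6 CPM) and below young replicate 2 (80.8 CPM). The 6 endothelial genes were named after their values were seen.

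The second comparison asked whether HSC from NR-treated aged mice differ from HSC of untreated aged mice. Of the 9 genes 3 fell, Cd48, Jam2 and Slamf1, and 0 rose, whereas 8.07% of all genes were called (3.88% higher and 4.18% lower). The same 3 genes had no overlap between the groups, against 8.6% of all genes. The median log2 difference was -0.38 over the members and 0.02 over all genes. With library totals the share of calls that were higher went from 48.1% to 78.4% and the median of all genes to 0.16, with upper-quartile scaling the share was 61.0%, and the members called were 2 lower with library totals and 3 lower with upper-quartile scaling.

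**Figure D2:**
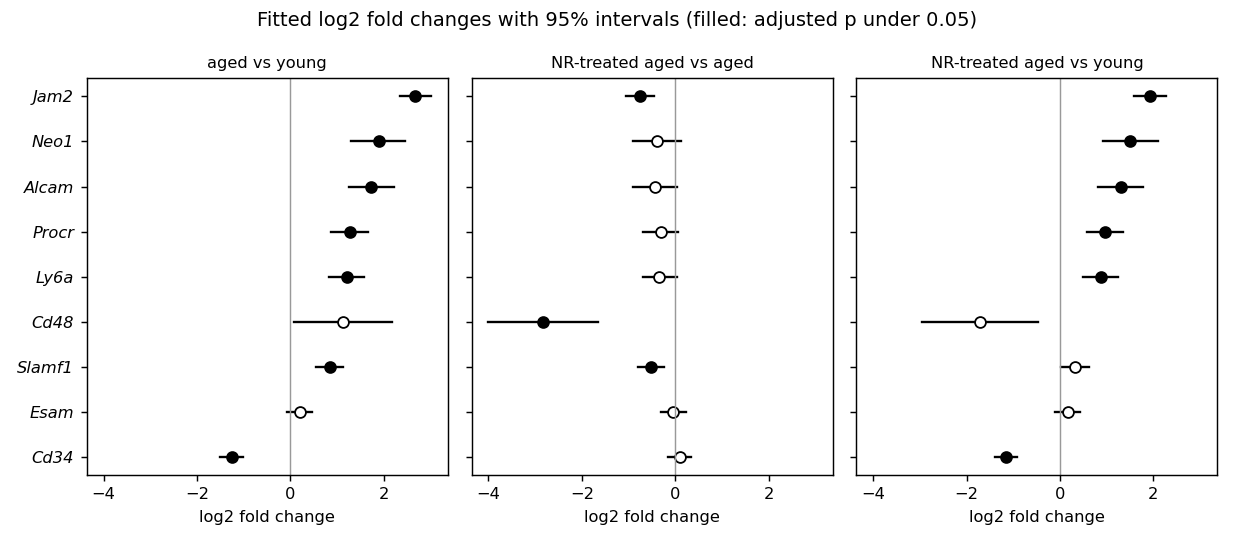
Log2 difference of each of the 9 genes in the 3 comparisons, with 95% intervals, from edgeR (5 libraries per group; filled symbols have an adjusted p under 0.05). The differences with age are between -1.26 and 2.68, those of NR-treated aged against aged HSC between -2.83 and 0.10, and the comparisons share libraries.

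Cd48 had the largest difference. Its level was 4.80, 1.19, 3.89, 2.19 and 5.45 CPM in the NR-treated aged libraries, beside the 7.78 to 40.2 CPM of the aged ones. All 5 libraries of the treated mice were under the lowest aged library, and the level was 7.13-fold lower (log2 -2.83, SE 0.56, 95% interval -4.01 to -1.66, adjusted p = 0.00776 by edgeR). These are small numbers of reads: 17, 4, 10, 6 and 20 counts in the treated libraries, and 92, 6, 323, 226 and 162 counts in the aged ones, where the 6 counts are from the shallowest library.

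Genes of other blood cells also differed between the NR-treated and untreated aged groups. The neutrophil list summed to 15.7 to 166.1 CPM in the NR-treated aged libraries against 1032 to 1662 CPM in the aged ones, and 7 of its 8 genes fell. The macrophage list summed to 298.7 to 486.3 CPM against 680.7 to 1603 CPM, with 3 of 6 genes lower. Most of this sum was Lyz2, which averaged 351.5 CPM in the treated and 1141 CPM in the aged libraries. Of 9 erythroid genes 8 fell and of 7 B and plasma cell genes 5 fell. Among the young libraries, the pair with the most neutrophil transcripts, replicates 3 and 4, also had the most Cd48. The macrophage sum had the same order as Cd48 over the young libraries, from 376.5 CPM in replicate 5 to 2482 CPM in replicate 3. Within the aged group the neutrophil and erythroid orders were not that of Cd48. Aged replicate 4 had the most Cd48 (40.2 CPM) and the lowest neutrophil and erythroid sums (1032 and 5540 CPM). It also had the highest macrophage sum (1603 CPM). Aged replicate 2 had the least Cd48 (7.78 CPM) with 1587 CPM of the neutrophil list. In the macrophage list the aged order differed from that of Cd48 only in the lowest pair, replicates 1 and 2 (680.7 and 722.6 CPM). Among the treated libraries, replicate 2 had the least Cd48 (1.19 CPM) and a neutrophil sum of 49.2 CPM, exceeded in that group by replicate 5 alone. The macrophage sum of that group was lowest in replicate 3 (298.7 CPM). It was highest in replicate 5 (486.3 CPM), which also had the most Cd48 of the group (5.45 CPM). The sort gate excluded CD48+ cells in every group. Cells with Mac-1, Gr-1, B220 or Ter119 had been removed with beads before the sort. The part of other cell types in the Cd48 difference was not tested.

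**Figure D3:**
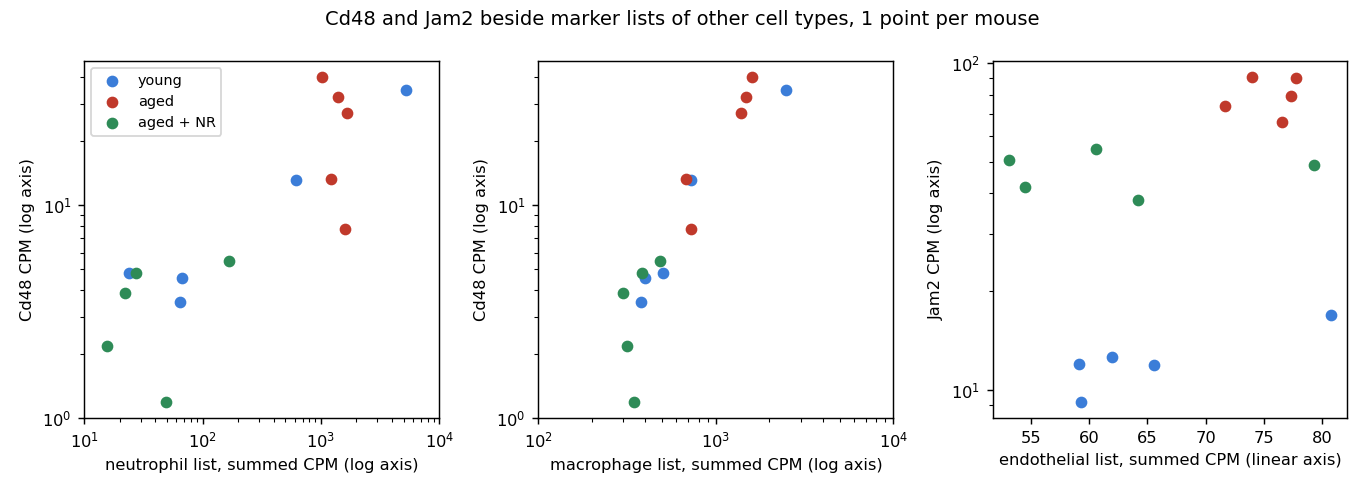
Cd48 (left and middle) and Jam2 (right) in CPM on log axes beside the summed CPM of 8 neutrophil, 6 macrophage and 6 endothelial genes in the same library, 1 point per mouse. The NR-treated libraries are below all aged ones in both blood cell sums and in Cd48, young replicate 3 is at 5210 CPM of the neutrophil list and 35.0 CPM of Cd48, and the endothelial sum is below all aged libraries in 4 of 5 young and 4 of 5 NR-treated libraries.

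Jam2 was at 50.6, 48.9, 38.1, 54.8 and 41.7 CPM in the NR-treated aged libraries. All of these were under the lowest aged library (66.0 CPM) and above the highest young one (16.9 CPM), so the treated group stood between the others. It was 1.7-fold lower than in aged HSC (log2 -0.76, SE 0.14, 95% interval -1.06 to -0.46, adjusted p = 0.0059). The endothelial sum was 53.1 to 64.2 CPM in 4 of the treated libraries, below all aged ones, and 79.3 CPM in replicate 2. Of the 6 measured endothelial genes 0 were called in NR-treated against aged HSC by edgeR. The part of endothelial cells in the Jam2 differences was not tested. Slamf1 was at 53.1, 60.5, 54.4, 44.2 and 56.4 CPM, also under every aged library, and 1.43-fold lower (log2 -0.51, SE 0.14, 95% interval -0.8 to -0.23, adjusted p = 0.0288). This call was less firm than the other 2: Slamf1 passed in 21 of 27 alternative fits, and the adjusted p was 0.0848 with library totals, 0.173 with libraries thinned to the smallest total, 0.0993 and 0.0794 without aged replicates 3 and 5, and 0.0615 and 0.0813 without NR-treated replicates 3 and 4. Cd48 and Jam2 passed in all 27.

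Since CD150 and CD48 are read together in the sort, the ratio of their transcripts was taken within each library, where scaling cancels. The log2 ratio of Slamf1 to Cd48 counts was 3.25, 2.66, 0.24, 1.76 and 3.94 in the young libraries, 2.3, 3.2, 1.69, 0.84 and 1.39 in the aged ones and 3.47, 5.67, 3.81, 4.33 and 3.37 in the NR-treated aged ones. All treated libraries were above all aged libraries, and the means were 2.37 ± 1.43, 1.88 ± 0.9 and 4.13 ± 0.94 (SD, n = 5). The ratio was not tested, as both genes had already been called in this comparison.

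The remaining 6 members did not pass this comparison. Alcam was at 118.1, 312.7, 123.3, 161.1 and 135.9 CPM in the treated libraries, where replicate 2 was above every aged library and the other 4 were under every aged library. Its log2 difference was -0.43 (95% interval -0.9 to 0.03, adjusted p = 0.231), and -0.77 without NR-treated replicate 2 (adjusted p = 0.0141). Ly6a was at 209.3, 216.7, 204.6, 345.2 and 219.7 CPM, with replicate 4 inside the aged range and the rest under it (log2 -0.34, 95% interval -0.7 to 0.03, adjusted p = 0.235). Procr was at 121.8, 191.1, 92.6, 137.0 and 127.7 CPM, with replicate 2 inside the aged range and the other 4 under every aged library (log2 -0.31, 95% interval -0.68 to 0.07, adjusted p = 0.301). Neo1 ranged from 11.7 to 23.8 CPM, with 0 of 5 libraries under the lowest aged one (log2 -0.38, 95% interval -0.9 to 0.13, adjusted p = 0.345). For Alcam, Neo1 and Procr the highest treated library was replicate 2.

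Cd34 and Esam were the members with the smallest differences. Cd34 was at 85.0, 73.3, 86.7, 69.0 and 78.4 CPM in NR-treated aged HSC, across the 67.5 to 78.9 CPM of aged HSC. Its log2 difference was 0.10 with an interval of -0.15 to 0.34 (adjusted p = 0.642), so a rise as large as the fall with age lay outside the interval. Esam was at 94.9 to 134.7 CPM, and its log2 difference of -0.04 (interval -0.3 to 0.23, adjusted p = 0.886) changed sign with library totals (0.10) and with upper-quartile scaling (0.01).

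The third comparison set HSC of NR-treated aged mice beside those of young mice, and shares libraries with the other comparisons. Of the 9 genes 6 differed, 5 higher and 1 lower, whereas 4.47% of all genes were called (2.56% higher and 1.91% lower). The same 6 had no overlap, against 4.74% of all genes. Jam2 was 3.78-fold higher in the treated than in the young mice (log2 1.92, SE 0.16, adjusted p = 1.9e-07), beside 6.41-fold in untreated aged mice. Neo1 was 2.84-fold higher, Alcam 2.46-fold, Procr 1.95-fold and Ly6a 1.83-fold, beside 3.7-fold, 3.33-fold, 2.41-fold and 2.31-fold in untreated aged mice. Cd34 was 2.23-fold lower (adjusted p = 1.7e-06), beside 2.39-fold.

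The mean of Slamf1 was 53.7 ± 6.02 CPM in NR-treated aged HSC, 42.7 ± 8.26 CPM in young HSC and 76.5 ± 9.81 CPM in aged HSC (SD, n = 5). The treated and young ranges overlapped and their difference did not pass (log2 0.33, 95% interval 0.03 to 0.62, adjusted p = 0.222). Cd48 did not pass either (log2 -1.72, interval -2.96 to -0.47, adjusted p = 0.116), except in the likelihood ratio test (-1.77, adjusted p = 0.0358) and without young replicates 1 and 5 (-2.28, adjusted p = 0.0263). Esam had a log2 difference of 0.16 (interval -0.1 to 0.43). Without young replicates 1, 3 and 5, Ly6a (0.79, adjusted p = 0.115) and Neo1 (1.09, adjusted p = 0.15) no longer passed.

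In order of mean level within each gene, Jam2, Neo1, Alcam, Procr, Ly6a and Slamf1 ran from young over NR-treated aged to aged. For Jam2 each step was past the spread between the libraries. For Neo1, Alcam, Procr and Ly6a the step from NR-treated aged to aged was not, and for Slamf1 it was the step from young to NR-treated aged that was not. For Cd34 the order was aged, NR-treated aged and young, with the first step within the spread. For Cd48 it was NR-treated aged, young and aged, where the outer pair differed.

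**Figure D4:**
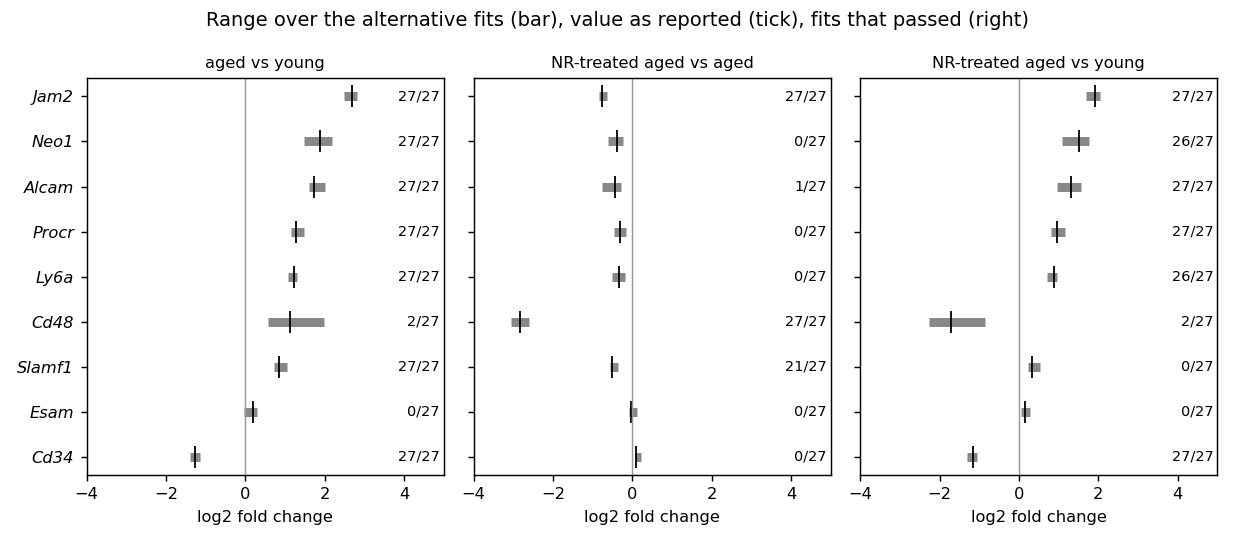
Range of the log2 difference of each of the 9 genes over 27 alternative fits in each of the 3 comparisons, with the value as reported and the number of fits that passed an adjusted p of 0.05. With age 7 genes passed in all 27 fits, and in NR-treated aged against aged HSC Cd48 and Jam2 did so and Slamf1 in 21.

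Relatives and partners of these proteins were read from lists of named families. The lists are short and none was tested as a set. Over all genes 9.68% were called higher and 9.63% lower with age. In NR-treated aged against aged HSC the shares were 3.88% and 4.18%. In the SLAM family, receptors that bind each other or themselves on blood cells, 6 further genes were measured. None was called with age by edgeR, and 2 fell in NR-treated aged against aged HSC, Slamf6 (log2 -3.03, adjusted p = 0.0186) and Slamf7 (-4.01, adjusted p = 0.0341), both named after their values were seen and both low, with at most 4.04 and 7.18 CPM in any library. Cd84, which lies on the other side of Slamf1 in the cluster, was at 129.6 ± 12.1, 151.5 ± 10.4 and 171.3 ± 29.6 CPM in young, aged and NR-treated aged HSC and passed in no comparison, nor did Slamf8.

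In the junctional adhesion family, 2 of 6 measured relatives of Jam2 rose with age and 1 fell in the treated mice. F11r (JAM-A) rose from 50.6 ± 4.66 to 72.6 ± 14.7 CPM (log2 0.55, adjusted p = 0.00821), beside a log2 difference of 2.68 for Jam2. Jam3, the binding partner of JAM2, had a log2 difference of -0.67 in NR-treated aged against aged HSC (adjusted p = 0.0418), and Cxadr passed in neither comparison. Among 6 measured Ly6 relatives 2 rose with age. Ly6e, a broadly expressed member, rose from 640.3 ± 97.2 to 1253 ± 123.6 CPM (log2 0.97, adjusted p = 1.99e-05) and was still higher in treated than in young mice (log2 0.76, adjusted p = 0.000647), while Cd59a did not pass. Ly6c2, known from monocytes, and Ly6d, known from lymphoid progenitors, were among the 3 that fell in the treated mice (log2 -4.58 and -4.56, adjusted p = 0.0156 and 0.0249), where the neutrophil, macrophage and B cell lists fell as well.

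Cd34 has the related sialomucins Podxl, Emcn and Cd164 beside it. None of these 3 was called with age by edgeR, with log2 differences of 0.44 for Podxl, -0.42 for Emcn and 0.16 for Cd164, nor in NR-treated aged against aged HSC (-0.35, -0.27 and -0.28). Of 6 measured partners of the members 2 rose with age. Thbd, thrombomodulin, which works with EPCR in the activation of protein C, was one of them (log2 1.02, adjusted p = 0.0108), whereas the thrombin receptor F2r and the BMP receptor Bmpr2 did not pass.

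**Figure D5:**
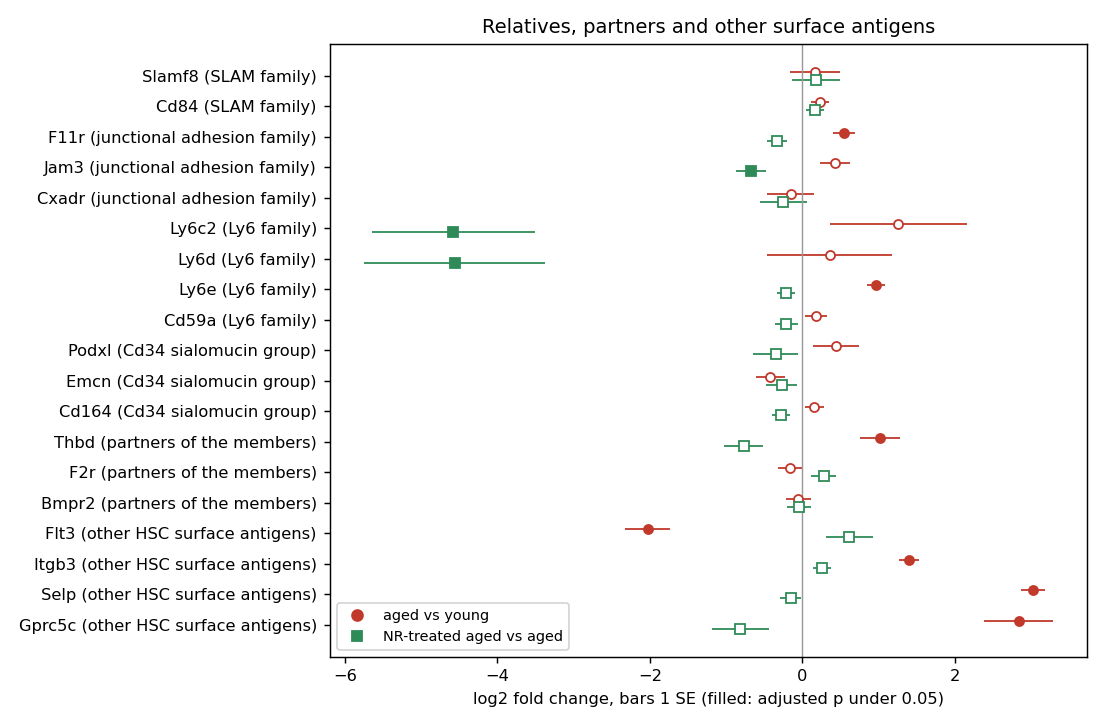
Log2 difference of relatives, partners and other surface antigens with age (circles) and in NR-treated aged against aged HSC (squares), with bars of 1 SE; filled symbols have an adjusted p under 0.05 by edgeR over all genes. Selp, Gprc5c and Itgb3 are higher and Flt3 lower with age, and Ly6c2, Ly6d and Jam3 are lower in the treated mice.

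Other surface antigens used on HSC and progenitors gave 26 genes, all measured. With age 6 rose and 3 fell, beside 9.68% higher and 9.63% lower over all genes. In NR-treated aged against aged HSC 3 rose and 2 fell, beside 3.88% and 4.18%. Selp, P-selectin of platelets and endothelium, rose from 16.4 ± 3.53 to 135.9 ± 18.3 CPM and was at 122.0 ± 21.2 CPM in the treated mice (log2 3.03 with age, adjusted p = 6.45e-11, and -0.15 in treated against aged HSC, adjusted p = 0.537). Its log2 difference with age was above that of Jam2 (2.68), and it was not called between treated and untreated aged mice, where Jam2 was. Whether the genes differ in that comparison was not tested. Gprc5c (log2 2.84) and Itgb3, integrin beta 3 (log2 1.40), also rose with age, and Flt3, the cytokine receptor of multipotent progenitors, fell from 14.5 ± 4.26 to 3.24 ± 1.29 CPM (log2 -2.03, adjusted p = 0.000107). Kit, which encodes the remaining positive gate marker, was at 360.3 ± 40.6, 322.5 ± 26.2 and 384.9 ± 53.6 CPM and was called in no comparison.

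Finally, the genes whose profile over the 15 libraries was most like that of each member were listed, by the root mean square difference of log2 CPM after each gene's own mean was removed. This is a description without a test, and the points share their libraries. Jam2 was closest to Sfrp1, a secreted Wnt antagonist, and Clec1a, a lectin-like receptor (0.32 each, where Jam2 itself varied by 1.13). Alcam was closest to Runx1t1 and Vmp1 (0.26 and 0.32 of 0.82), Slamf1 to Heg1 and Sesn1 (0.17 and 0.18 of 0.40) and Neo1 to Trim47 and Klhl4 (0.36 and 0.38 of 0.87). Ly6a and Procr had the same nearest gene, the guanylate-binding protein gene Gbp8 (0.20 of 0.58 and 0.18 of 0.63), followed by Tmem176a and by Ndn. Cd34 was closest to Dtl and Sh2d5 (0.28 and 0.29 of 0.58), and Cd48 to Cd52, a lymphocyte and myeloid antigen, and Ms4a3, a gene of granulocyte and monocyte progenitors (0.46 and 0.54 of 1.39).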

How the data were processed

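RNA of sorted HSC from 15 mice in 3 groups was sequenced as 3′-biased libraries with molecular identifiers of 10 bases. The authors aligned reads with STAR 2.4.2a to GRCm38, removed duplicates by identifier, counted reads in GENCODE exons with featureCounts and kept genes with more than 5 reads and 2 CPM in at least 2 samples. The deposited values are raw counts per gene without normalization; the strand setting is not given in the sources used here. From these counts edgeR 4.0.16 (R 4.3.3) fitted 1 quasi-likelihood model with TMM scaling over all 15 libraries and 16154 genes, with group as the factor. Benjamini-Hochberg adjustment ran over all genes, with a threshold of 0.05. CPM are TMM-scaled. SE and 95% intervals come from the quasi-likelihood F statistic. Each library is 1 mouse, so p-values measure the spread between these mice. No libraries were copies of each other. Alternatives were edgeR's likelihood ratio test, DESeq2 1.42.0, limma-voom 3.58.1, other scalings, a mean of at least 10 counts, thinning, 2-group fits, a replicate block and left-out libraries; leaving out young replicates 1, 3 and 5 together was chosen after seeing the data. Members and lists alike were chosen with earlier results of these data known. From each companion list up to 4 genes averaging 5 CPM or more were named, by the lowest adjusted p with age and then with NR, and for each member whose level differed the 2 genes nearest in profile, searched among 7136 genes averaging 20 CPM or more. Others are stated where named. Promoter and gene positions are those of GRCm38. No sequence of a protein was used here. Of the companion genes that the rule named, 1 is not reported here.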

Additional observations from a re-analysis of the deposited data

Results flagged for a closer look

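Of 30 sets of 5 libraries tested for a single library far from the other 4 (a gap of more than 0.71 of the range), 4 had one, and chance alone marks about 1 in 20 such sets. All 4 were in the NR-treated aged group. Ly6a was at 345.2 CPM in replicate 4, and the gap to the next library was 0.892 of the range. Without that library the log2 difference from aged HSC was -0.51 instead of -0.34 and did not pass (adjusted p = 0.0864 by edgeR). Alcam was at 312.7 CPM in replicate 2 (gap 0.779), and without it the difference from aged HSC was -0.77 and passed (adjusted p = 0.0141). Neo1 was at 23.8 CPM in the same replicate (gap 0.753), and without it the difference was -0.61 and did not pass (adjusted p = 0.139). Esam was at 94.9 CPM in replicate 3, the lowest of its group (gap 0.735), and without it the difference from aged HSC was 0.04.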

How the results depend on the processing

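Over 27 alternative fits, 710 of 729 values of the members kept their direction and their side of the threshold. The genes called with age, 3120 as reported, were 1317 at an adjusted p under 0.01, 1530 after thinning, 1862 without young replicates 1 and 5, 1157 without young replicates 1, 3 and 5, and 1953 to 3533 with 1 library left out, the lowest without aged replicate 3. In NR-treated aged against aged HSC, 1303 became 208 at 0.01, 468 after thinning and 422 to 1535 with 1 library left out, with 422, 607, 538 and 534 without aged replicates 3 and 5 and NR-treated replicates 3 and 4. Against young HSC, 722 became 310, 419 and 314 (at 0.01, after thinning and without young replicates 1, 3 and 5) and 452 to 922 with 1 library left out, the lowest without NR-treated replicate 4. The log2 difference of Esam changed sign with age after thinning (-0.03) and in NR-treated aged against aged HSC with library totals (0.10), upper-quartile scaling (0.01), thinning (0.11) and left-out libraries (-0.09 to 0.04). Fewer samples and fewer counts enter the left-out and thinned fits; otherwise the cause was not tested.

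With the replicate number as a block, 2836, 1048 and 589 genes and 7, 3 and 6 members were called, and no member's call changed. Samples with the same number did not deviate together (correlations of -0.252 to 0.1373), so the numbers were not taken as pairs. The counts behind Cd48 (4 to 20 in NR-treated libraries) and Neo1 limit the precision of their differences, and the shallowest library, aged replicate 2, limits all low genes.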

Other observations

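Among the other surface antigens, 5 that were singled out after their values were seen differed between NR-treated and untreated aged mice. Itga2b, the integrin of megakaryocytes and platelets also called CD41, was at 90.0 CPM in untreated and 188.3 CPM in treated aged mice on average (log2 1.07, adjusted p = 0.00106 by edgeR), and higher as well were Cd27, a receptor of the TNF family (0.56, adjusted p = 0.0119), and Tie1, an endothelial and HSC receptor (0.32, adjusted p = 0.0493). Cd38, an enzyme that consumes NAD, was at 51.0 and 22.9 CPM (-1.13, adjusted p = 0.0247), and Fcgr3, an Fc receptor of myeloid and natural killer cells, at 24.0 and 0.638 CPM (-5.12, adjusted p = 0.0065), in libraries where 7 of 8 neutrophil genes also fell. No cause of these differences was tested.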
